A study of Mus musculus with 18 samples.

Results

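Corpus mature pit cells are the surface mucous cells at the luminal end of the gastric units of the stomach body, and here they are the cells of cluster 13 in the cell annotation of dataset 2 that the authors deposited. They were taken by that cluster number alone and were 121 of the 3993 annotated corpus cells, 53 from pool K and 68 from pool T. Single cells of the stomach of wild-type male C57BL/6J mice, 10 weeks old, were measured by Quartz-Seq2, a method with 1 sorted cell per well and plates of 384 wells that counts each transcript molecule once by its unique molecular identifier (UMI). Dataset 2 held corpus gastric units only, from 2 pools of 3 mice prepared by different operators, and each pool was sorted as Hoechst33342(+), ToPro3(-) cells into 6 plates. Dataset 1 held corpus and antrum gastric units together, from tube 1 and tube 2, again pools of 3 mice by different operators, sorted as ToPro3(-) cells into 3 plates each with an RNA spike in the lysis buffer. No group received a treatment, the mice of a pool cannot be told apart, and pool and operator cannot be told apart either.

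The plates of dataset 2 held from 10540256 to 12850942 UMIs and those of dataset 1 from 3054370 to 5346035. Mature pit cells had a median of 43578 UMIs and 6555 detected genes per cell, with a range of 7316 to 114668 UMIs, against a median of 32262 UMIs in pre-pit cells (cluster 4). Over their cells the sums were 2165683 UMIs (pool K) and 2908998 UMIs (pool T). The median share of mitochondrial UMIs was 4.39% in mature pit cells and 4.75% in pre-pit cells, and 8 of the 121 cells had 10% or more. Levels are given below as CPM, the UMIs of a gene in every 1000000 UMIs summed over the cells of a cluster in a pool, after scaling by the trimmed mean of M values (TMM). Values per plate are CPM by total UMIs alone, without TMM, so they are on another scale than the pool values. Ratios were taken on CPM + 5, which understates the ratio of low genes. The sorter's singlet gate was the only step against doublets.

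Pit cells are made from progenitors in the isthmus of the gastric unit, move upward as pre-pit cells, cover the surface that faces the acid, and are shed there within days. They secrete a mucus gel of MUC5AC with trefoil and gastrokine peptides together with bicarbonate, and form a tight epithelial barrier. Surface epithelia also carry antimicrobial and antiviral defences, among them the interferon-stimulated genes, whose products degrade or bind foreign RNA and tag proteins after a cell receives or produces interferon.

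The label was checked against the pit markers *Gkn2*, *Gkn1*, *Muc5ac*, *Shh* and *Duox2*. *Gkn2*, a secreted gastrokine, stood at 52472 CPM in pool K and 56489 CPM in pool T in mature pit cells, and at 33091 and 35488 CPM in pre-pit cells, the next highest cluster. *Gkn1*, its relative, was at 49524 and 52859 CPM against 30479 and 31162 CPM. *Muc5ac*, the gel-forming mucin of the surface, was at 4144 and 5389 CPM, and at 3800 and 4244 CPM in pre-pit cells. *Gkn2* and *Gkn1* thus separated the pit clusters more than *Muc5ac* did, and all 3 were higher in mature pit cells in both pools. *Shh*, the hedgehog ligand made by surface cells, was at 176 and 166.2 CPM, against 35.2 and 47.0 CPM in pre-pit cells. *Duox2* had UMIs in only 12 of the 121 cells, so most cells of the cluster lacked this marker. *Aqp3*, which the study used as a marker of mature pit cells, had UMIs in 8 of 53 cells of pool K and 33 of 68 of pool T.

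Markers of other lineages were read as whole lists. The 6 parietal cell markers summed to 224 CPM in pool K and 193 CPM in pool T, below each of the 13 other epithelial clusters, whose sums ran from 264 to 62049 CPM in pool K and from 225 to 54766 CPM in pool T. The 5 chief cell markers with a row in the files summed to 12344 and 11455 CPM, against 334508 CPM in the chief cluster of pool T. Nearly all of that sum was *Pgc*, the precursor of a pepsin, at 12171 and 11182 CPM in mature pit cells and 26769 and 21457 CPM in pre-pit cells. *Pgc* had UMIs in all 121 cells, with a lowest value of 14.4 per 10000 UMIs, and after thinning also in every cell of the other epithelial types. Markers of immune cells (a sum of 0 and 0.386 CPM), of stromal and endothelial cells (0.963 and 0.771 CPM) and of forestomach squamous cells (0.482 and 0.771 CPM) were at or near 0. The 4 antrum pit cell markers *Krt7*, *Krt20*, *Fcgbp* and *Zg16* summed to 10.6 CPM in pool K, within the range of the other clusters (7.94 to 76.8 CPM), and to 147.7 CPM in pool T, above the highest other cluster (104.2 CPM). *Krt20* made up most of the sum in pool T, at 121 CPM, with 2.89 CPM in pool K, and *Zg16* had 0 UMIs in both. Among the defining genes of immune, stromal and squamous cells, *Ptprc*, *Col1a1*, *Krt5*, *Krt14* and *Trp63* had 0 UMIs in mature pit cells of both pools. The 6 tuft cell markers summed to 93.0 and 172 CPM, above the highest other cluster (37.1 and 42.9 CPM), and nearly all of it was *Avil*. Neck (73.2 and 122 CPM), endocrine (119 and 68.6 CPM) and duodenal markers (76.6 and 146 CPM) lay below the highest other cluster. Pre-pit cells had 80.7 and 55.2, 57.0 and 87.1, and 66.3 and 87.1 CPM of these 3 lists. The duodenal marker *Fabp2* was 2-fold above every other cluster.

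A subset of the cluster went against its label. In 16 of the 121 cells, 9 from pool K and 7 from pool T, *Gkn2* made up less than 1% of the UMIs, with a median of 7.59 per 10000, against 566 per 10000 in the other 105 cells. The same 16 cells had a median of 476 per 10000 for *Pgc*, against 43.5, and a median of 24726 UMIs, against 45627. *Gkn1*, *Tff1* and *Muc5ac* were low in them as well, with medians of 7.08, 33.0 and 1.61 per 10000, against 528, 501 and 42.2. The cut lay in a thin stretch of values, with 91.6 as the highest cell below it and 105 as the lowest above, and 7 cells between 50 and 200 per 10000. Counts below are given for all 121 cells first, and without these 16 where that changes them by over 1.5 times.

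Beyond mucins and gastrokines, 61 of 10173 genes (0.6%) in mature pit cells exceeded by at least 2-fold the highest of the 13 other epithelial clusters, in pool K and again in pool T. The clusters were made from these same counts, so this is a description without a test. It held for pool T alone with 106 genes and for pool K alone with 67. A gene had to average 5 CPM over the 28 sums of a cluster in a pool to enter, which a gene high in 1 cluster can reach through that cluster. For most of the leading genes the next cluster was pre-pit, and for *Ifit1*, *Isg15*, *Oasl2*, *Irf7*, *Oas2* and *Ifit1bl1* it was isthmus cluster 6 in both pools.

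The 2 leading genes were surface glycoproteins of the Ly6 and uPAR family. *Lypd8l* (chromosome 11, 58499030 to 58506901, minus strand, GRCm39) stood at 2868 CPM in pool K and 4104 CPM in pool T, against 160 and 368 CPM in pre-pit cells, ratios of 17.4 and 11. *Lypd8* (chromosome 11, 58269863 to 58281554, plus strand), whose protein binds flagella of bacteria at the gut surface, stood at 1132 and 2211 CPM, and the highest other cluster had 109 and 57.8 CPM. The copies resemble each other, so reads may have been shared between them. After thinning of each cell to 10000 UMIs, which left 50 and 67 mature pit cells, *Lypd8l* had a UMI in 82.0% and 86.6% of them, and in 28.4% and 45.2% of pre-pit cells. In parietal cells, which are of another lineage and had median UMIs of 46156 and 49859, the share was 2.76% and 6.29%. Before thinning the share in mature pit cells was 84.9% and 89.7%.

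Proteases, transporters and enzymes of lipid and xenobiotic metabolism followed. *Capn9* (chromosome 8, 125296350 to 125345472), a calpain of the gastric surface, was at 193 and 285 CPM against 19.0 and 31.9 CPM in pre-pit cells, and its partner *Capn8* at 27.9 and 39.3 CPM against 2.32 and 3.13 CPM. *Slco2a1* (chromosome 9, 102865911 to 102973201), the prostaglandin transporter, was at 81.9 and 108 CPM against 7.19 and 10.2 CPM. Both calpains and the transporter were thus over 4-fold above every other cluster in each pool. *Ces2c*, a carboxylesterase, stood at 96.8 and 199 CPM, with 21.1 and 17.6 CPM in pre-pit cells. *Akr1b8*, an aldo-keto reductase, stood at 57.8 and 154 CPM, and *Aldh3a1*, an aldehyde dehydrogenase, at 2338 and 2201 CPM against 934 and 1035 CPM. *Gsta1*, a glutathione transferase whose reads may be shared with *Gm3776*, was at 4168 and 4850 CPM against 1731 and 2201 CPM.

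*Sptssb*, a small subunit of serine palmitoyltransferase, the enzyme that starts sphingolipid synthesis, was at 1578 and 2623 CPM against 516 and 850 CPM in pre-pit cells. *Gal3st1*, the cerebroside sulfotransferase, was at 181 and 227 CPM against 73.3 and 86.8 CPM. The sulfate transporter *Slc26a2* stood at 215 and 223 CPM against 71.9 CPM in each pool, a ratio of 2.87 and 2.97. These 3 genes act in sphingolipid synthesis or in sulfate supply, and their ratios over every other cluster lay between 2.37 and 3.07. *Slc5a5*, the sodium iodide symporter, was at 573 and 608 CPM with 198 and 292 CPM in pre-pit cells. *Sptssb*, *Slc26a2*, *Slc5a5*, *Gsta1* and the genes *Gsdma2*, *Fhl1*, *Gsn*, *H2-T23*, *Psca*, *Kcnj16*, *Lbh* and *Rnase4* below lie outside the fixed rule and lists and were named after their values were seen.

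Of the list of apical actin and microvillus genes 24 passed the filter, and *Myo1a* alone was at least 2-fold above every other cluster in both pools. *Myo1a*, the brush border myosin, was at 108 and 128 CPM against 44.7 and 58.8 CPM in pre-pit cells. *Avil* and *Gsn*, which sever actin filaments, were at 93.0 and 172 CPM and at 650 and 733 CPM, between 2.01-fold and 3.69-fold above the highest other cluster. *Lgals3* and *Lgals4*, galectins that bind sugars on glycoproteins, were at 53.9 and 155 CPM and at 353 and 765 CPM. The galectins and actin genes were higher in pool T than in pool K, and in both pools they were above every other cluster. *Il33*, a cytokine released by damaged epithelium, was at 436 and 311 CPM against 102 and 93.2 CPM. *Gsdma2*, a gasdermin, a family of pore-forming proteins, was at 3163 and 4108 CPM against 1390 and 1451 CPM. *Fhl1*, a LIM domain protein, was at 360 and 549 CPM against 107 and 123 CPM.

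**Figure D1:**
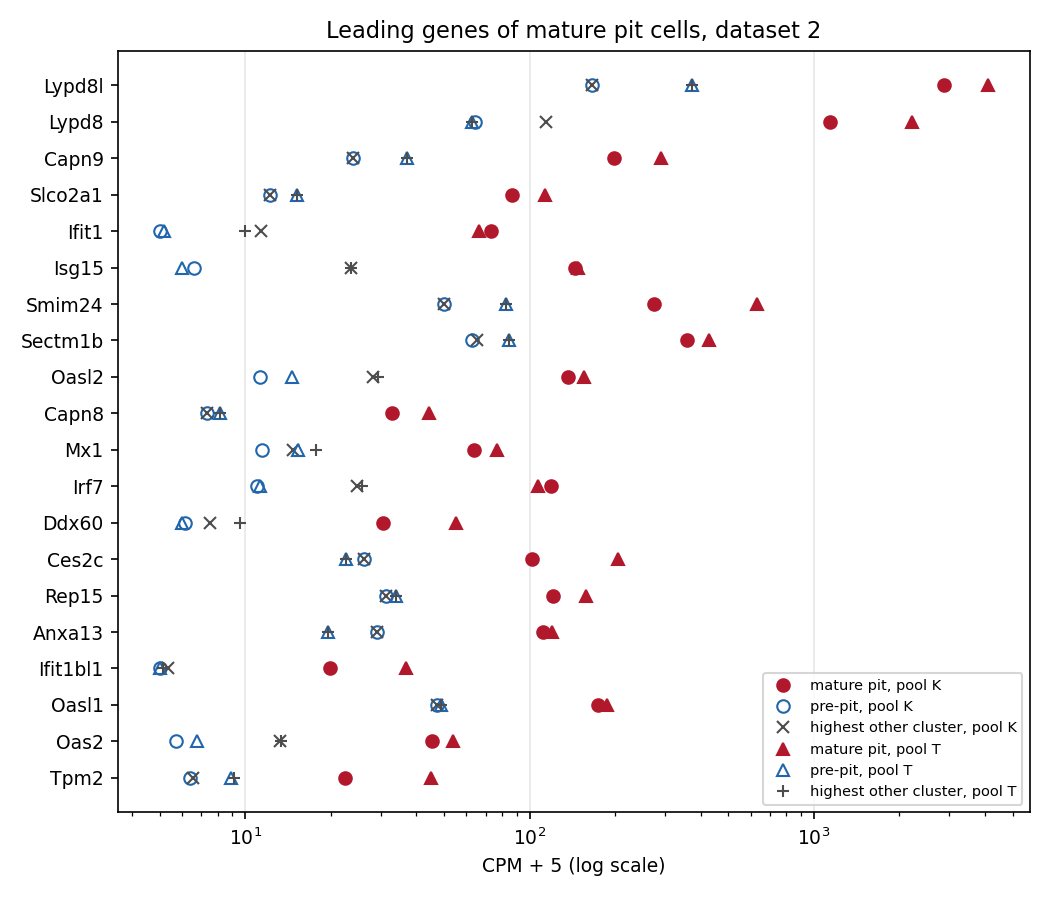
The plot shows CPM + 5 on a log axis for the 20 genes with the largest ratio of mature pit cells to the highest other epithelial cluster, with red symbols for mature pit cells, open blue symbols for pre-pit cells and grey crosses for the highest other cluster, each in pools K and T. In every gene the mature pit cells of both pools lie to the right of the other symbols, with *Lypd8l* at 2868 and 4104 CPM and *Isg15* at 140 and 143 CPM.

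Interferon-stimulated genes were among the leading genes. Of 26 interferon-stimulated genes listed, a list chosen with earlier results of these data known, 19 passed the filter. Of these, 7 were at least 2-fold above every other epithelial cluster (*Ifi35*, *Ifit1*, *Isg15*, *Mx1*, *Oas1a*, *Oasl2* and *Parp14*), beside 0.6% of all genes. At least 2-fold above pre-pit cells were 12, beside 1.11% of all genes, and none was 2-fold below. The median log2 ratio to pre-pit cells was 1.33 over the list and -0.05 over all genes. *Isg15*, a ubiquitin-like protein that is joined to other proteins, stood at 140 CPM in pool K and 143 CPM in pool T, against 1.62 and 0.979 CPM in pre-pit cells and 18.5 and 18.6 CPM in isthmus cluster 6. *Ifit1*, which binds RNA that lacks the cap of the host, was at 68.4 and 61.3 CPM, with 6.35 and 4.95 CPM in the highest other cluster. The pools lay close together in both genes, and both pools lay above every other cluster.

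The windows before the starts of 4 of the leading interferon genes are shown because they hold a motif that interferon regulatory factors are known to bind. Each is the 250 bases before the start of the canonical transcript in GENCODE, on GRCm39, written 5′ to 3′ on the strand of the gene, with matches to GAAANNGAAA or its reverse TTTCNNTTTC in capitals, where overlapping matches were joined.
Isg15: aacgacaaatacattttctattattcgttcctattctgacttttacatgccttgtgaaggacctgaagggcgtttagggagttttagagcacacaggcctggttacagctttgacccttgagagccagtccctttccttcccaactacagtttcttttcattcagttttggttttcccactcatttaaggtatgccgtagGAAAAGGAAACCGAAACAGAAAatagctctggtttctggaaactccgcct
Ifit1: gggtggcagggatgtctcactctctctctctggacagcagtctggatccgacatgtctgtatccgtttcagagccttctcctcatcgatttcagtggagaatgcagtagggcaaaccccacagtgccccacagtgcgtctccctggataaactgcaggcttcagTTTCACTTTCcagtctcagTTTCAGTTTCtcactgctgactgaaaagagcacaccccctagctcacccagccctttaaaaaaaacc
Ddx60: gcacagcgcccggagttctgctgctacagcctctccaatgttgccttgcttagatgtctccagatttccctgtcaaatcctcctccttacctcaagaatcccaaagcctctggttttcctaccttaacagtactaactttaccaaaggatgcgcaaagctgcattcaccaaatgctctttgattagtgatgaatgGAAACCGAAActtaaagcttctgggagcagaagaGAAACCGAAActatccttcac
Oas2: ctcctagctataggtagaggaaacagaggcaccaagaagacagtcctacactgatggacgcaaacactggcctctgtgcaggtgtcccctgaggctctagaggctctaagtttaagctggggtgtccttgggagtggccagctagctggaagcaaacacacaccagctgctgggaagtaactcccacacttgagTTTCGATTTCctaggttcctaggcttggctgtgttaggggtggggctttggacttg

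These windows are chr4:156285304-156285553 on the minus strand for *Isg15*, chr19:34618021-34618270 on the plus strand for *Ifit1*, chr8:62380873-62381122 on the plus strand for *Ddx60* and chr5:120887934-120888183 on the minus strand for *Oas2*. *Isg15* held 3 matches that overlapped, at 50, 44 and 38 bases before the start, *Ifit1* held 2 at 86 and 67 bases, *Ddx60* held 2 at 55 and 21 bases, and *Oas2* held 1 at 56 bases. The windows were chosen for holding the motif, and in that of *Ifit1bl1*, also among the 20 leading genes and not shown, the match lay at 116 bases. Of the 7 listed genes above every other cluster, *Ifit1* and *Isg15* held it. The motif was present on either strand in 723 of 21738 windows of protein-coding genes (3.33%), in 6 of the 26 interferon-stimulated genes listed (23.1%) and in 6 of the 60 windows of genes high in mature pit cells (10%). A match is a description of these letters and was not tested as a binding site. *Ddx60* and *Oas2* are not members of the list of 26. *Ddx60*, an RNA sensor of the helicase family, stood at 25.5 and 50.1 CPM against 2.53 and 4.6 CPM in the highest other cluster. *Oas2*, which makes the oligoadenylates that activate an RNA-degrading enzyme, stood at 40.5 and 49.0 CPM against 8.24 and 8.37 CPM.

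Further interferon genes were higher than in pre-pit cells, though not all were highest in mature pit cells. After thinning, *Irf1* had a UMI in 16.0% and 26.9% of mature pit cells, against 24.6% and 37.4% of neck cells. *Ifi27l2b* had one in 48.0% and 55.2%, against 84.7% and 80.8% of parietal cells. *Oasl2* was at 132 and 150 CPM against 6.26 and 9.60 CPM in pre-pit cells. *Mx1*, a dynamin-like antiviral GTPase, was at 58.8 and 71.7 CPM against 6.49 and 10.4 CPM. *Irf7*, a transcription factor that induces interferon genes, was at 114 and 102 CPM against 6.03 and 6.27 CPM. The signal transducer *Stat2* was raised less in ratio, at 69.4 and 44.3 CPM against 14.6 and 13.5 CPM. It was not 2-fold above every other cluster in both pools. *B2m*, the light chain of MHC class I, was at 794 and 807 CPM, which was 2.24-fold and 2.22-fold above pre-pit cells but below the highest cluster, which was chief cluster 10 in pool K and neck cluster 12 in pool T. *H2-T23*, a non-classical MHC class I gene, was at 81.4 and 123 CPM, against 31.5 and 33.3 CPM in the highest other cluster. Reads of *Oas1a* and *Oas1g*, and of *Ifit1* and *Ifit1bl1*, may have been shared between these similar genes.

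Cells with many UMIs of the interferon genes were a minority. After thinning to 10000 UMIs, 21 of 50 mature pit cells of pool K (42.0%, 95% Wilson interval 29.4% to 55.8%) and 24 of 67 of pool T (35.8%, 25.4% to 47.8%) had 5 or more UMIs of the 7 genes above. In pre-pit cells it was 2 of 134 (1.49%) and 0 of 157, with an upper Wilson bound of 2.39% for the latter. Isthmus cells had 15 of 563 (2.66%) and 13 of 716 (1.82%), and neck cells 5 of 639 (0.782%) and 3 of 599 (0.501%). Intervals cover counting error only, and the 7 genes had been chosen for their level in this cluster, so the shares describe how the level was spread over cells. Without thinning *Isg15* had a UMI in 45.3% and 41.2% of mature pit cells. Over the 7 genes that share ran from 15.1% and 23.5% for *Ifit1* to 77.4% and 77.9% for *Ifi35*, so single UMIs were more widely spread. The 10 cells with the most *Isg15* held 64.0% of its UMIs, and for *Ifit1* that share was 90.7%.

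**Figure D2:**
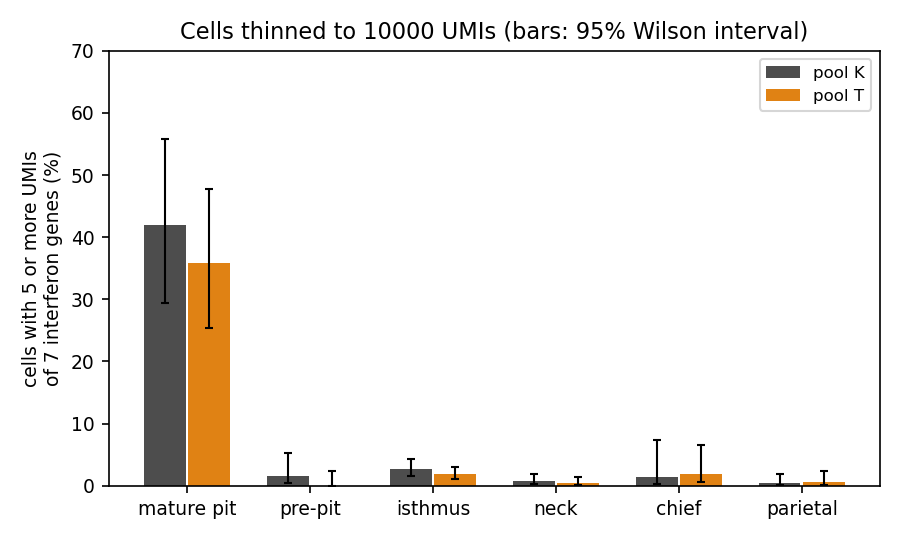
The bar chart gives the percentage of cells, thinned to 10000 UMIs, with 5 or more UMIs of 7 interferon genes by epithelial type, for pools K and T, with 95% Wilson intervals that cover counting error. Mature pit cells stand at 42.0% and 35.8%, and every other type lies below 3%.

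The cells with little *Gkn2* carried interferon UMIs too. The 7 genes had a median of 7.77 per 10000 UMIs in the 16 cells with *Gkn2* under 1% of UMIs, with a lowest value of 1.92, and a median of 1.19 in the other 105 cells, with a range of 0 to 61.7. Without the 16 cells, 5 of the list were 2-fold above every other cluster in both pools and 12 were 2-fold above pre-pit cells. The interferon genes were thus present on both sides of the *Gkn2* cut.

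In dataset 1 the group was not raised in the same way. Its mature pit cells (cluster 8) had 0 UMIs of *Isg15* and 0 of *Ifit1* in sums of 909953 and 790457 UMIs. There 3 UMIs would have been 3.30 and 3.8 CPM, below the level of dataset 2. In dataset 2 the 10 highest cells held 64.0% of the *Isg15* and 90.7% of the *Ifit1* UMIs. Whether the 13 cells per tube of dataset 1 missed such cells was not tested. Of the 26 genes 15 could be tested there, and 8 rose against the other corpus types, where 20.2% of all genes rose. Only *H2-D1* rose against pre-pit cells (698 and 751 CPM against 390 and 403 CPM, log2 fold change 0.87 ± 0.15, adjusted p = 0.000755, edgeR quasi-likelihood test), where 7.08% of all genes rose. The median log2 fold change against pre-pit cells was 0.52 over the list and -0.03 over all genes. *Oasl2* was at 5.13 and 12.6 CPM in tubes 1 and 2, against 4.19 and 4.61 CPM in pre-pit cells. Antrum pre-pit cells of tube 1 had 33.4 CPM of *Isg15* and 46.3 CPM of *Oasl2*, against 1.94 and 5.81 CPM in tube 2. Dataset, mice, tissue and dissociation differ together, so the source of the difference cannot be told apart.

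No gene of 10173 (0.0%) was 2-fold below all 13 other clusters in both pools, while 9 were once the 16 cells with little *Gkn2* were left out, 7 were in pool T alone and 3 in pool K alone. The 10 genes closest to it were highest in a chief or a parietal cluster. *Habp2*, a serine protease that binds hyaluronan, was at 64.1 and 49.0 CPM against 709 and 730 CPM in the chief cluster. *Soat1*, which esterifies cholesterol, was at 24.1 and 13.9 CPM against 217 and 228 CPM in the same cluster. *P4ha2*, a collagen prolyl hydroxylase, was at 10.6 and 9.64 CPM against 344 and 312 CPM in parietal cluster 1. *Esrrg*, a nuclear receptor of parietal cells, was at 8.67 and 6.17 CPM, against 1081 and 1052 CPM in parietal cluster 8. *Pdia2*, a disulfide isomerase, and *Ttr*, which carries thyroid hormone, were at 26.5 and 27.4 CPM and at 54.4 and 70.2 CPM, against 9195 and 9425 CPM and 4247 and 3117 CPM in chief cells. Pre-pit cells were low in them too, with *Habp2* at 148 and 106 CPM and *Pdia2* at 46.1 and 50.7 CPM.

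Against pre-pit cells, 113 genes (1.11%) were at least 2-fold higher and 19 (0.187%) at least 2-fold lower in mature pit cells of both pools. Without the 16 cells with little *Gkn2* the counts were 126 and 61, so the count of lower genes rested on these cells. In pool T alone they were 196 and 49, and in pool K alone 139 and 67. Besides the genes above, the higher genes included *Psca*, a surface protein of gastric epithelium, at 7382 and 9551 CPM against 3100 and 4001 CPM, which was still higher in the chief cluster. *Rnase4*, a secreted ribonuclease, was at 48.6 and 158.9 CPM against 6.03 and 12.3 CPM. *Kcnj16*, an inward rectifier potassium channel, was at 128 and 147 CPM against 34.3 and 35.8 CPM. *Cdkn1a*, the p21 cell cycle inhibitor, was at 63.1 and 232 CPM against 12.3 and 22.5 CPM. *Lbh*, a transcriptional cofactor, was at 25.5 and 65.9 CPM against 1.62 and 4.90 CPM.

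The genes lower than in pre-pit cells included *Gstm1* and *Mgst1*. *Gstm1*, a glutathione transferase, was at 779 and 639 CPM against 1839 and 1866 CPM, and *Mgst1*, a microsomal one, at 78.0 and 99.9 CPM against 164.4 and 223 CPM. *Emp1*, an epithelial membrane protein, was at 106 and 92.5 CPM against 348 and 283 CPM. *Slc1a3*, a glutamate transporter, was at 66.9 and 45.9 CPM against 190 and 128 CPM. Pools K and T differed less from each other in these 4 genes than either did from pre-pit cells. *Ctsh*, a lysosomal cathepsin, was at 84.3 and 84.8 CPM against 221 and 209 CPM. *Tspan33*, a tetraspanin, was at 20.2 and 13.5 CPM against 80.2 and 54.1 CPM. *Pla2g4a*, the cytosolic phospholipase that releases arachidonic acid, was at 63.6 and 48.6 CPM against 139 and 115 CPM, while the prostaglandin transporter *Slco2a1* was higher. *Ccnb2*, a mitotic cyclin, was at 11.6 and 19.3 CPM against 40.8 and 56.4 CPM.

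The question of which of these differences recur in other mice was put to dataset 1. Its cluster 8, which the study names corpus mature pit cells, held 26 cells, 13 from each tube, and was compared with corpus pre-pit, isthmus-like, neck and parietal cells as sums per tube by edgeR's quasi-likelihood test with Benjamini-Hochberg adjustment. When its cells were matched to the profiles of dataset 2, all 26 fell to mature pit cells, whichever of 2 alternate sets of genes was used, and so did 13 to 15 cells per tube of the pre-pit cluster and 11 to 25 cells per tube of the duodenal cluster. Of 10229 genes, 2069 rose (20.2%) and 1904 fell (18.6%) against the mean of the other corpus types, and 724 rose (7.08%) and 600 fell (5.87%) against pre-pit cells. Without tube 1 of the mature pit cells, 420 genes passed against pre-pit cells, 253 of them higher, and 2260 against the other types, 1414 of them higher. The clusters of dataset 1 were made from its own counts, so these p-values also reflect the clustering. With cells assigned over 1 of these gene sets and tested on the other, the duodenal cells among them, 1018 rose and 891 fell against pre-pit cells, and 886 of the 1324 calls were shared. With the assignment kept to the 5 corpus clusters 907 rose and 740 fell, and 934 calls were shared.

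Of the 61 genes high in dataset 2, 54 could be tested in dataset 1 and 50 of them rose (92.6%) against the other corpus types, with none falling and a median log2 fold change of 4.21. The 7 not tested were *Ifit1*, *Isg15*, *Mx1*, *Oas1g*, *Parp14*, *Rtp4* and *Xaf1*, all of the interferon response. Of the 113 genes higher than in pre-pit cells, 104 could be tested and 68 rose (65.4%), with none falling. Of the 19 lower genes 15 fell (78.9%), and *Ccnb2*, *Dmbt1*, *Itih2* and *Trim46* did not pass the test. The shares stand beside 20.2%, 7.08% and 5.87% of all genes called in these directions.

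Single genes gave the same order of levels in the other mice. *Capn9* was at 598 and 476 CPM in tubes 1 and 2 against 141 and 197 CPM in pre-pit cells (log2 fold change 1.69 ± 0.20 SE, adjusted p = 4.08e-05). *Slco2a1* was at 459 and 280 CPM against 72.0 and 55.3 CPM (2.51 ± 0.23, adjusted p = 5.15e-06). *Lypd8l* was at 7576 and 6442 CPM against 1439 and 1826 CPM (2.11 ± 0.40, adjusted p = 0.00182), and pre-pit cells held more of it there than in dataset 2. *Gal3st1* rose from 134 and 176 CPM to 481 and 510 CPM (1.70 ± 0.18, adjusted p = 1.6e-05). *Gstm1* fell, with 274 and 501 CPM against 1577 and 1447 CPM (-1.96 ± 0.19, adjusted p = 6.27e-06). *Slc1a3* fell from 79.0 and 48.4 CPM to 0 UMIs in both tubes (adjusted p = 3e-05), where 3 UMIs would have been 3.30 and 3.8 CPM. Tubes 1 and 2 did not overlap with pre-pit cells in any of these 6 genes. *Anxa13* (0.14 ± 0.27, adjusted p = 0.795), *Aldh3a1* (0.27 ± 0.15, adjusted p = 0.265) and *Il33* (0.68 ± 0.24, adjusted p = 0.0699) did not pass the test against pre-pit cells.

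**Figure D3:**
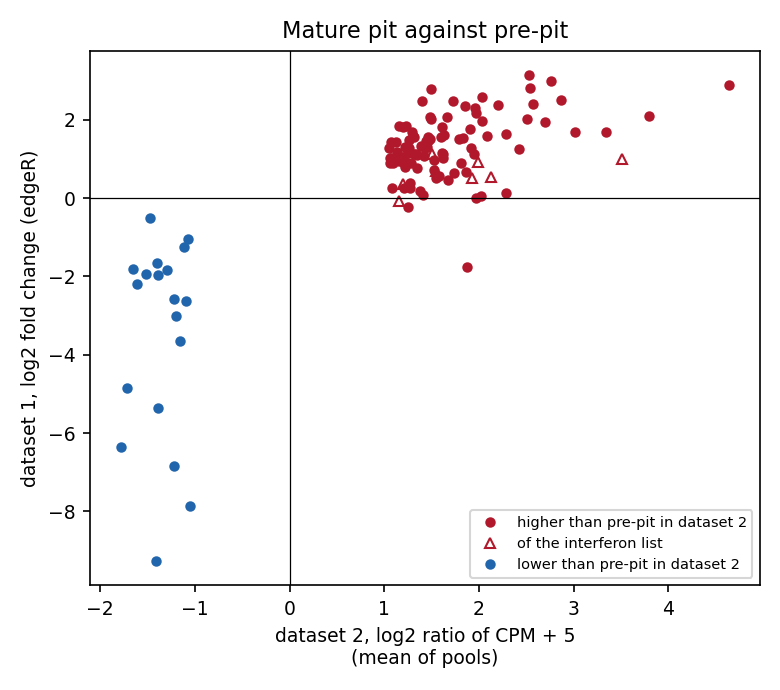
Each point is a gene at least 2-fold higher (red) or lower (blue) in mature pit than in pre-pit cells of dataset 2, with its log2 ratio there on the x axis (mean of both pools) and its log2 fold change in dataset 1 from edgeR on the y axis, and triangles mark the interferon-stimulated list. Of 104 tested red genes 68 passed the test as higher in dataset 1 and of 19 blue genes 15 as lower, and no interferon gene shown passed the test.

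The pathway lists of pit cell function gave the following counts against pre-pit cells in dataset 1, where each list's own choice was made with results of these data known, and where 7.08% of all genes rose and 5.87% fell. Of the actin and microvillus genes, 27 could be tested, 13 rose and 2 fell, with a median log2 fold change of 0.55, against -0.03 over all genes. *Vil1*, the villin of microvilli, rose from 23.1 and 19.6 CPM to 88.5 and 60.2 CPM (1.78 ± 0.27, adjusted p = 0.00031), and *Myo1a* rose by 1.44 ± 0.23 (adjusted p = 0.000462). *Flna*, a filamin of the cell cortex, fell (adjusted p = 0.00668), from 16.8 and 16.1 CPM to 0 and 2.80 CPM. In dataset 2 *Myo1a* was the only member 2-fold above pre-pit cells in both pools, and *Vil1* was at 15.4 and 39.3 CPM against 16.5 and 26.0 CPM.

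Of 36 tested genes of lipid and sphingolipid synthesis 11 rose, 2 fell and 23 did not pass the test, with a median log2 fold change of 0.13. *Dgat2*, which makes triglyceride, rose by 2.10 ± 0.32 (adjusted p = 0.000332), and *Sgms2*, a sphingomyelin synthase, by 1.66 ± 0.26 (adjusted p = 0.000409). *Fa2h* and *Degs2*, which hydroxylate sphingolipids, rose by 0.87 ± 0.23 and 0.86 ± 0.16 (adjusted p = 0.0173 and 0.00181). *Degs1*, the desaturase related to *Degs2*, fell by 1.61 on the log2 scale (± 0.26, adjusted p = 0.000434), and *Cers2*, a ceramide synthase, fell from 123 and 164.7 CPM to 92.3 and 93.9 CPM (adjusted p = 0.0255). In dataset 2 *Fabp2*, *Fabp5* and *Gal3st1* were 2-fold above every other cluster in both pools, and the list's median log2 ratio to pre-pit cells was 0.31.

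Genes for making and secreting mucus went both ways. Of 32 tested genes of O-glycosylation and mucin secretion, 6 rose and 6 fell against pre-pit cells. The secretory GTPase *Rab27a* rose by 1.10 ± 0.18 (adjusted p = 0.000571) and its effector *Sytl2* by 0.69 ± 0.19 (adjusted p = 0.019), and *Gcnt3*, which branches O-glycans, by 0.65 ± 0.15 (adjusted p = 0.00659). *Galnt6*, which adds the first sugar of O-glycans, fell from 166.4 and 175 CPM to 39.8 and 65.8 CPM (adjusted p = 9.15e-05). *Tff2*, a trefoil peptide of neck cells, fell from 12145 and 14369 CPM to 3246 and 6014 CPM (adjusted p = 0.000462), and in dataset 2 it was at 12092 and 11562 CPM against 22526 and 21938 CPM. None of the list was 2-fold apart from pre-pit cells in both pools of dataset 2.

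Of 27 tested genes of aldehyde, alcohol and xenobiotic metabolism 9 rose and 3 fell. *Fmo5*, a flavin monooxygenase, rose by 2.51 ± 0.35 (adjusted p = 0.00013) and *Cyp2s1*, a cytochrome P450, by 1.31 ± 0.19 (adjusted p = 0.00024). The glutathione transferase *Gstm1* and *Mgst1* fell, and so did *Adh5*, a formaldehyde-oxidising alcohol dehydrogenase, from 92.3 and 114 CPM to 52.6 and 70 CPM (adjusted p = 0.022). Of 23 tested genes of late epithelial differentiation 9 rose and 1 fell. *S100a14* rose by 2.74 ± 0.34 (adjusted p = 5.55e-05) and *S100a6*, also a calcium-binding protein, from 847 and 684 CPM to 3648 and 2575 CPM. *Emp1* was the one that fell, by 2.18 on the log2 scale (± 0.41, adjusted p = 0.0017).

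Transcription factors were read as 2 lists. Of the 11 factors that the study listed for the pit lineage, which were chosen on these cells and so are not independent of them, 10 could be tested, 8 rose against the other corpus types and 5 against pre-pit cells, with a median log2 fold change against pre-pit cells of 0.69. *Tcf23*, a helix-loop-helix factor, rose by 1.61 ± 0.25 (adjusted p = 0.000374) and *Pparg*, a nuclear receptor for fatty acids, by 1.23 ± 0.18 (adjusted p = 0.000261). *Irf7* and *Stat2* were 2-fold above pre-pit cells in dataset 2 and did not pass the test in dataset 1 (adjusted p = 0.264 and 0.569). *Klf4*, known from surface epithelia, was at 836 and 911 CPM in dataset 2 against 652 and 727 CPM. Of 40 tested other gastric and epithelial factors 3 rose and 1 fell against pre-pit cells, where 7.08% of all genes rose and 5.87% fell, so the share that rose was close to that of all genes. *Sox9*, a factor of progenitors, fell from 185 and 157.8 CPM to 32.1 and 53.2 CPM (adjusted p = 2.5e-05), and in dataset 2 it was at 170 and 155 CPM against 266 and 215 CPM.

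Genes of cell death, growth signals and adhesion were read the same way, beside 7.08% of all genes that rose and 5.87% that fell. Of 19 tested genes of cell death and shedding 4 rose against pre-pit cells and none fell, among them *Cdkn1a* (2.80 ± 0.36, adjusted p = 7.12e-05), the executioner caspase *Casp6* (1.54 ± 0.17, adjusted p = 2.1e-05) and *Bnip3*. In dataset 2 *Casp6* was at 194 and 227 CPM against 167.4 and 200 CPM. The EGF receptor ligand *Areg* rose from 13.3 and 15.0 CPM to 88.5 and 78.4 CPM (adjusted p = 0.00019), with *Tgfa* as the other riser among 20 tested genes of that pathway, which is little above the share of all genes. Of 12 integrins and laminins tested, 4 rose and 1 fell. Of 19 tight junction and desmosome genes tested 4 rose and none fell, with *Dsg2*, a desmosomal cadherin, at 0.92 ± 0.16 (adjusted p = 0.000928). Of 26 ion, bicarbonate and water transporters 3 rose and none fell, which was also little above it, led by *Aqp3*, a water and glycerol channel, at 3.95 ± 0.26 (adjusted p = 2.17e-07). Of 8 keratins 4 rose and none fell, of 8 genes of eicosanoid metabolism 3 rose and 2 fell, and of 9 genes of peroxide and surface defence 3 rose and 1 fell. Of 7 hedgehog pathway genes *Shh* alone passed the test (1.13 ± 0.16, adjusted p = 0.000196).

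Markers that could move with these results were read in dataset 1 as well, beside 7.08% of all genes that rose against pre-pit cells and 5.87% that fell. Of 13 genes of dividing cells 5 fell against pre-pit cells and none rose. Of the 14 genes of the response to dissociation, *Atf3* and *Dnajb1* rose against pre-pit cells and none fell, with *Atf3* at 132 CPM in tube 1 and 15.4 CPM in tube 2. The chief cell markers *Pgc* and *Pga5* fell, with *Pgc* at 1213 and 1455 CPM against 9248 and 9079 CPM. The parietal markers *Atp4a* and *Atp4b* rose against pre-pit cells (adjusted p = 0.0476 and 0.0102), through tube 2 alone, where *Atp4b* was at 143 CPM, against 6.41 CPM in tube 1. The part of these markers in the other results was not tested.

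Antrum mature pit cells of dataset 1, the type most like them in the distal stomach, held several of the leading genes too. *Lypd8l* was at 5870 and 5047 CPM there and *Slco2a1* at 237 and 207 CPM, in both tubes lower than the corpus values given earlier. *Capn9* was at 493 and 518 CPM, and its tubes overlapped with those of the corpus cells. *Gsdma2* was at 3287 and 2999 CPM in antrum and 6862 and 5620 CPM in corpus mature pit cells, and *Il33* at 129 and 212 CPM against 326 and 296 CPM. *Duox2*, the hydrogen peroxide-making dual oxidase, was at 7.44 and 6.74 CPM against 232 and 57.4 CPM. In these 3 genes, as in *Lypd8l* and *Slco2a1*, the tubes of the corpus cells lay above those of the antrum cells, and the differences themselves were not tested.

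Mature pit cells differed among themselves. *Gkn2* had a UMI in all 121 cells and its 10 highest cells held 15.7% of its UMIs. *Gsdma2* had a UMI in 119 cells with 23.6% in the 10 highest, and *Lypd8l* in 106 cells with 29.2%. *Lypd8* was less even, since it had a UMI in 107 cells with a median of 1.87 per 10000 and a highest value of 261 per 10000, and 52.2% of its UMIs were in 10 cells. *Duox2* and its maturation factor *Duoxa2* were in few cells. *Duox2* had UMIs in 12 cells, 10 of which held 99.2% of them, at 34.7 and 64.4 CPM over the cluster, and it had 0 UMIs in the pre-pit cells of either pool. *Duoxa2* had UMIs in 8 cells. *Krt20*, a keratin of shedding surface cells in the gut, had UMIs in 1 cell of pool K and 13 of pool T.

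Some of these genes were found in the same cells. Spearman correlations of counts per 10000 UMIs were taken over the 121 cells, which share pools and plates. They were 0.82 for *Isg15* and *Oasl2*, 0.75 for *Lypd8l* and *Capn9*, 0.70 for *Lypd8l* and *Slco2a1*, and 0.73 for *Duox2* and *Duoxa2*. In each pool alone the first was 0.77 and 0.85 and the second 0.78 and 0.70. *Isg15* and *Capn9* had a correlation of -0.39, with -0.46 in pool K and -0.32 in pool T. *Lypd8* and *Isg15* had 0.16. The correlations include the 16 cells with little *Gkn2*, in which *Lypd8l* and *Capn9* both had a median of 0, and depth varied over the cells.

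**Figure D4:**
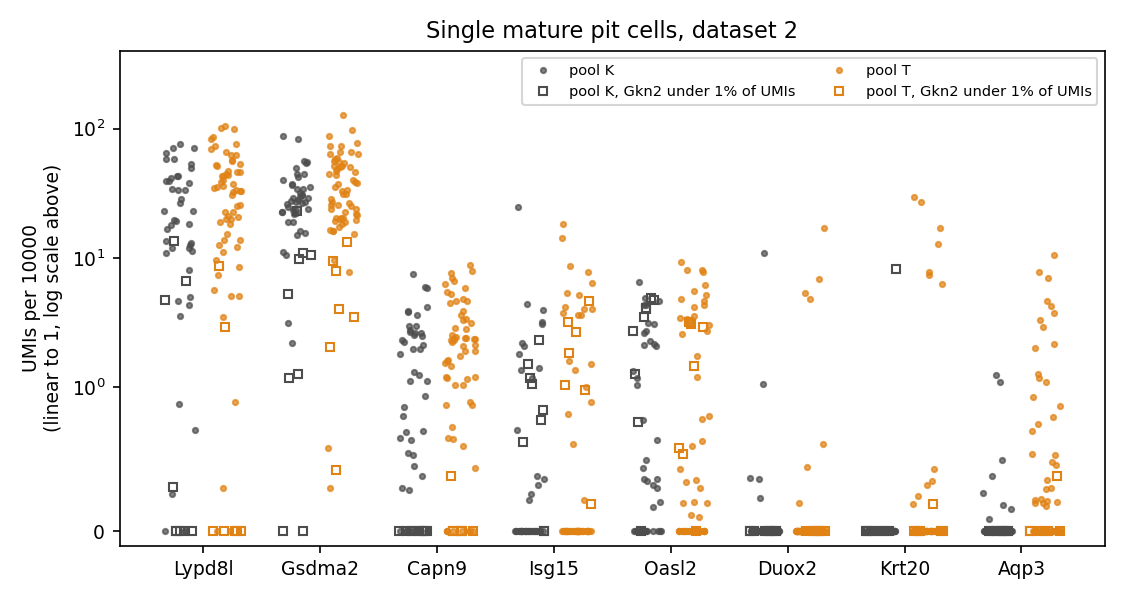
Each point is a mature pit cell, with the gene on the x axis and its UMIs per 10000 UMIs of the cell on the y axis (linear to 1 and on a log scale above), pool K in grey and pool T in orange, and open squares for the 16 cells with *Gkn2* under 1% of UMIs. *Lypd8l* lies above 0 in 106 of the 121 cells and *Duox2* in 12, and the open squares reach at most 13.7 per 10000 for *Lypd8l* and 0.38 for *Capn9*, with a median of 0 in both.

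Pools K and T were compared over plates, with 6 plates on each side and CPM by total UMIs. A side is 1 pool of 3 mice, so no test of the pools was possible. At least 2-fold higher in pool T, with plates that did not overlap, were 9 of 6151 genes (0.146%), and 0 (0.0%) were higher in pool K. In pre-pit cells of the same plates 1 of 6484 genes was higher in pool T (0.0154%) and 0 in pool K (0.0%). The antrum pit markers moved with the pool, at 10.6 CPM in pool K and 147.7 CPM in pool T, and their part in the difference was not tested. A few cells held much of it, since 10 of the 68 cells of pool T had 73.3% of the *Aqp3* and 89.5% of the *Psapl1* UMIs, against 50.2% for *S100a6*. Leaving out plate PID00163 of pool T gave 23 genes and leaving out plate PID00168 of pool K gave 14.

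*S100a6* ran from 366 to 690 CPM over the plates of pool K, with a median of 529, and from 1301 to 2101 CPM over those of pool T, with a median of 1966. *Aqp3* ran from 0 to 29.2 CPM in pool K and from 32.9 to 143 CPM in pool T. *Cdkn1a* ran from 47.6 to 79.5 CPM in pool K and from 112 to 363 CPM in pool T. *S100a14*, a relative of *S100a6*, ran from 0 to 19.4 CPM in pool K and from 36.2 to 84.9 CPM in pool T. *AA467197*, the gene of a small mitochondrial protein, ran from 16.2 to 43.3 CPM and from 63.4 to 329 CPM. *Psapl1*, a relative of prosaposin, ran from 0 to 11.1 CPM and from 11.1 to 195 CPM, so its plates were separated only in the next digit. *Pdlim1*, *Phgr1* and *Serpinb1a* made up the 9. All 9 were also higher in pool T in pre-pit cells, where *S100a6* had a median of 215 CPM over the plates of pool K and 593 CPM over those of pool T. The median log2 ratio there was 0.50 over the 9 genes and -0.03 over all genes. Only 1 of the 9 was at least 2-fold higher there with plates that did not overlap.

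All 9 genes rose against pre-pit cells in dataset 1, where 7.08% of all genes rose, with *Aqp3* at 240 and 193 CPM against 12.6 and 16.1 CPM. The other leading genes did not divide the pools. *Isg15* ran from 40.2 to 345 CPM over the plates of pool K and from 56.3 to 243 CPM over those of pool T, and *Slco2a1* from 54.8 to 110 CPM and from 36.2 to 157 CPM. In both genes the plates of the pools overlapped.

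**Figure D5:**
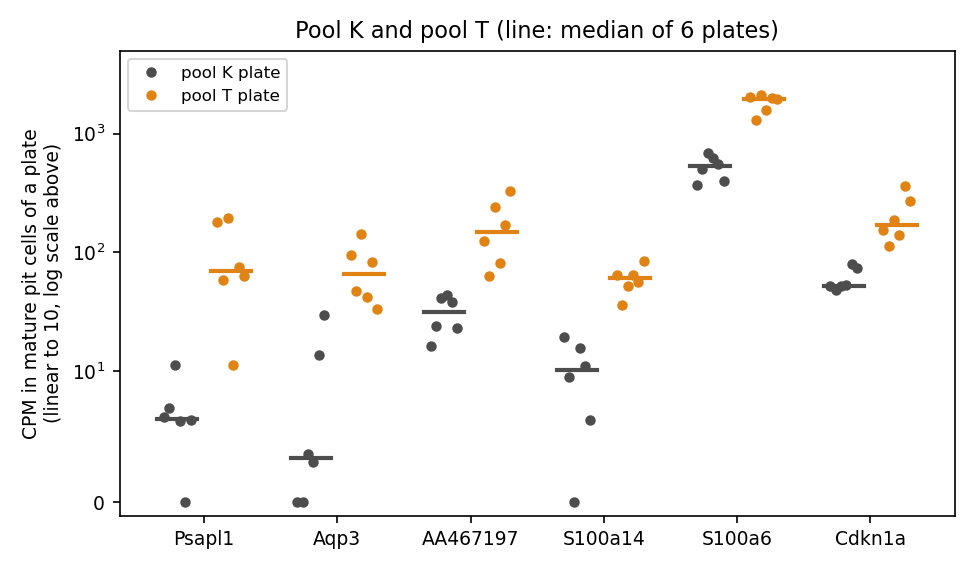
The plot gives CPM by total UMIs in the mature pit cells of each plate for 6 genes, pool K in grey and pool T in orange, with a line at the median of 6 plates and an axis that is linear to 10 and logarithmic above. The plates of pool T lie above those of pool K in each gene, with medians of 1966 and 529 CPM for *S100a6* and with *Psapl1* nearly touching at 11.1 CPM.

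The share of mature pit cells was close between the pools. They made up 53 of 1950 annotated cells of pool K (2.72%, 95% Wilson interval 2.08% to 3.54%) and 68 of 2043 of pool T (3.33%, 2.63% to 4.20%), and over plates from 1.90% to 4.76%. The intervals overlapped, and such a share depends on how well surface cells survive dissociation and sorting, which was not measured. By the phase calls in the deposited annotation, 106 of the 121 cells were in G1 (87.6%), 12 in S and 3 in G2/M, against 255 of 291 pre-pit cells in G1 (87.6%). All 3 cells called G2/M were from pool K, and phase calls alone do not show cycling.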

How the data were processed

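Single cells of mouse stomach were measured by Quartz-Seq2 on 18 plates, 6 in dataset 1 and 12 in dataset 2. The authors turned the reads into count tables with bcl2fastq 2.20.0.422, FASTX-Toolkit, Drop-seq tools and the aligner STAR (GRCm39), and deposited whole UMI counts per gene and well without normalization. They also deposited an annotation, made with Seurat, of the cells that passed their minimum of detected genes (lowest kept value 2501 in dataset 2 and 2502 in dataset 1), with each cell's cluster, phase call and percent of mitochondrial UMIs. Cells were sorted through a singlet gate, and no doublet caller was run here. For dataset 1 the labels name ToPro3 as the dye for dead cells, where the methods of the study name propidium iodide. Plates were linked to the annotation by plate number and pool letter, and total UMIs and detected genes were then equal in all 3993 cells of dataset 2 and all 491 of dataset 1. Barcodes recur between plates by design, with 384 distinct well barcodes in dataset 2 and 296 in dataset 1, so that a cell is a barcode on a plate. The 2 tables that pool all kept cells were not used.

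UMIs were summed per cluster and pool, scaled by TMM, and filtered at a mean of 5 CPM over 28 sums. Sums per plate were scaled by total UMIs, with TMM as an alternative. Ratios were taken on CPM + 5. No p is given within dataset 2, since its clusters come from these counts. Dataset 1 was tested with edgeR 4.0.16 in R 4.3.3 (glmQLFit, glmQLFTest), with 7 types in 2 tubes in 1 fit, Benjamini-Hochberg adjustment over all genes tested and a threshold of 0.05. Standard errors were derived by dividing a log2 fold change by the square root of its F statistic. The fit was tested on simulated counts. Sums of different types with the same tube number come from the same mice. The correlation of the tube differences between types lay between -0.03 and 0.07 over 21 pairs of types, and the tube as a block was an alternative.

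Named genes were the 20 with the largest ratio to the highest other cluster and at least 10 UMIs in each pool, the 10 with the lowest ratio to the lowest other cluster, the 10 largest rises and the 10 largest falls against pre-pit cells, the 6 largest differences between pools with plates that do not overlap, and members of gene lists, of which some are not reported here. Mucins and gastrokines served as markers. The cluster and the lists were chosen with earlier results of these data known. Alternatives were other pseudocounts, filters, scalings and tools, single pools, tubes or plates left out, and cells assigned over alternate genes. Chosen after the data were seen were the removal of cells with little *Gkn2* or with 10% or more mitochondrial UMIs and the assignment within 5 corpus clusters. Windows and positions are from GENCODE on GRCm39.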

Additional observations from a re-analysis of the deposited data

Results flagged for a closer look

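In each pool the values of single genes in the mature pit cells were compared over the 6 plates, in 40 groups of plates, and 4 groups held a plate far from the others, where chance gives about 1 in 20. *Duox2* stood at 147 CPM on 1 plate of pool K, against a median of 2.59 CPM over its plates, and at 284 CPM on 1 plate of pool T, against a median of 15.5 CPM. Its UMIs came from 12 of 121 cells. *Il33* stood at 964 CPM on 1 plate of pool K, against a median of 375 CPM. *Gkn1* stood at 41563 CPM on 1 plate of pool K, against a median of 49012 CPM.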

How the results depend on the processing

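Each setting was changed alone. Of 61 genes above every other cluster, 39 were left with a pseudocount of 20 CPM, 35 with a filter of 20 CPM and 11 at 4-fold, and the single pools gave 67 to 106. Genes below every other cluster, 0 in all, were 6 with a pseudocount of 1 CPM, 3 by total UMIs, 9 without the cells with little *Gkn2* and 3 to 7 in single pools. Genes above pre-pit cells, 113 in all, were 60 with a pseudocount of 20 CPM, 61 with a filter of 20 CPM, 16 at 4-fold and 139 to 196 in single pools. Genes below pre-pit cells, 19 in all, were 79 and 7 with pseudocounts of 1 and 20 CPM, 12 with DESeq2 size factors and with each cell weighted equally, 34 by total UMIs, 0 at 4-fold, 61 without the cells with little *Gkn2* and 49 to 67 in single pools.

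In dataset 1 DESeq2 called 2638 genes against the other corpus types in place of 3973, and 665 against pre-pit cells in place of 1324. Of these calls 62.7% were higher by DESeq2 and 52.1% by edgeR against the other types, and 62.9% and 54.7% against pre-pit cells. Without 1 tube of the mature pit cells, the lone tube being taken to vary like the other types, there were 2260 to 3172 calls against the other types, 57.3% to 62.6% of them higher, and 420 to 1232 against pre-pit cells. With the tube as a replicate block 3979 genes were called against the other types, 3912 of them also without the block, and 1404 against pre-pit cells, 1303 of them also without it, and neither count moved by over 1.5 times. Between the pools 4 genes were higher in pool T at 4-fold and 7 to 23 with a plate left out, and 0 to 1 were higher in pool K with a plate left out.

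Of single genes 10 values turned. With cells assigned over alternate genes the log2 fold change against the other types was 0.70 for *Dmbt1*, 1.998 for *Gstm3*, 0.12 for *Ccnb2* (0.38 within 5 corpus clusters) and 0.036 for *Gstm1*, and against pre-pit cells 0.15 for *Dmbt1* and 1.58 for *Gstm3*. With a tube left out it lay between -0.83 and 0.084 for *Dmbt1* against the other types, and against pre-pit cells between -0.14 and 0.37 for *Anxa13* and between -1.21 and 0.21 for *Esrrg*. The cause was not tested. Of the other values of named genes in dataset 1 under these settings, 567 kept their direction and side of the threshold, 21 passed it newly and 19 no longer passed. The 26 mature pit cells there limit the depth for low genes.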
